A study of Mus musculus with 13 samples.

Results

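RNA of 10 genes of base excision repair, the pathway that removes damaged or misplaced single bases from DNA, was followed through 3 WT mouse ovaries and 10 MP ovarian tumors. The genes are Ung, Tdg, Ogg1, Mutyh, Neil1, Neil3, Apex1, Xrcc1, Polb and Lig3, taken by name as members of the pathway, by a rule that uses none of their values. Each was found by its symbol among the 53465 genes of the deposited expression table. All 10 passed the filter on low values and stood among the 17277 genes tested.

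Bulk RNA was sequenced from 3 ovaries of WT C57BL/6 mice and from 10 tumors named Myc;p53-/- EPO-GEMM, in short MP, all labelled non-treated. An EPO-GEMM is a tumor raised without germline engineering. A plasmid mix was injected into the left ovary of WT C57BL/6 females aged 8 to 12 wk, and electrical pulses carried it into the tissue. The labels of the WT ovaries carry the same protocol and age range, and the age at collection is not given. For MP tumors the mix held a vector for Cas9 and a guide against Trp53, a transposon that overexpresses MYC and the transposase that inserts it. Electroporation does not select a cell type, so any cell near the injection could take up the plasmids, and RNA came from whole tissue at the end point. The sample descriptions carry a number after IGO, whose meaning is not stated. The 3 WT ovaries share it with MP tumors 1 to 3, MP tumors 4 to 6 have another, and MP tumors 7 to 10 a further one. The labels do not say that each library came from its own animal, so P values measure the spread between these libraries, which may in part be technical.

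In base excision repair, a DNA glycosylase recognizes certain wrong bases and cuts them from their sugar, which leaves a site without a base. The AP endonuclease APE1, the product of Apex1, nicks the strand there, DNA polymerase β inserts the right nucleotide, and DNA ligase III seals the nick while held by the scaffold protein XRCC1. A longer branch of the pathway replaces several nucleotides and borrows PCNA, FEN1, DNA ligase I and the replicative polymerases. In the ovary the pathway serves dividing follicle cells, and in tumors it handles uracil and oxidized bases that arise during replication.

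Values are TPM. They add up to 1000000 over the genes of a library and are scaled by gene length, which allows levels of different genes to be compared. Reads worked back from the table came to between 31445004 and 64013840 per WT ovary and between 3892690 and 19906507 per MP tumor, and the smallest count behind a value reported for the 10 genes was 16 reads, for Mutyh in MP tumor 4. Trp53, the gene targeted by the guide, was at 80.7 to 85.4 TPM in the ovaries, at 4.30 to 26.0 TPM in MP tumors 1 to 9, and at 187 TPM in the library labelled MP tumor 10 (log2 fold change -2.23, limma adjusted P = 0.0579, and -1.54, limma adjusted P = 0.0984 after scaling). MP tumor 10 stands here for the library so labelled, whose Trp53 RNA was above that of every ovary. The state of the Trp53 gene in that library was not tested. RNA counted for the mouse Myc gene was at 126 to 129 TPM in the ovaries and 7.09 to 419 TPM in the tumors (-0.67, limma adjusted P = 0.654, and 0.03, limma adjusted P = 0.982 after scaling). In MP tumor 2 the 10 most abundant genes held 55.1% of all TPM, against 7.92% to 20.6% in the other tumors. In that tumor mitochondrial genes held 15.4% of all TPM, against 0.883% to 5.56% in the other tumors and 6.32% to 6.99% in the ovaries. CT010467.1, a gene model that lies in a ribosomal RNA repeat, was at 208853 TPM there, at 811 to 10855 TPM in the other tumors and at 887 to 1058 TPM in the ovaries, with 9 of 10 tumors above every ovary. The part of these signs of RNA quality in the results was not tested. Granulosa and luteal markers summed to between 28364 and 34121 TPM in the ovaries and to between 10.3 and 2197 TPM in the tumors, all 10 of the list being lower (limma adjusted P under 0.05), while epithelial markers, 5 of 9 tested being lower, summed to 338 to 363 TPM in the ovaries and 8.28 to 1211 TPM in the tumors, 7 of them below every ovary and 2 above. In TPM 4 of 5 smooth muscle, 2 of 5 endothelial and 2 of 7 stromal markers were also lower, and 0 of them higher (limma). Of all genes tested 14.3% were called lower. Of T and NK cell markers 2 of 3 tested were lower, their sum being below every ovary in all 10 tumors. Macrophage, B cell and neutrophil markers gave 0 calls. The neutrophil sum was nonetheless above every ovary in 8 tumors, at a median of 20.6 TPM against 4.36 to 7.68 TPM. Fewer cells of a type and less RNA per cell cannot be told apart in bulk tissue. The median gene tested was at a log2 fold change of -0.58 in TPM, so the comparisons of the 10 genes and of single genes after them are also given after median-of-ratios scaling, in which the TPM of a library are divided by its median ratio to the other libraries and the median gene stands at -0.02.

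Upstream windows were read for the genes whose promoters hold the MYC site CACGTG, because the tumors overexpress MYC, together with Ung, whose RNA differed most between the groups. RefSeq windows of 300 bases (GRCm38.p6), from 250 bases before to 50 bases after the start site, were found for 9 of the 10 genes, and Polb had none. They are given 5′ to 3′ on the strand of the gene. Capitals mark CACGTG, which reads the same on both strands and overlapped no other motif searched.
Apex1, chr14:50924699-50924998, plus strand: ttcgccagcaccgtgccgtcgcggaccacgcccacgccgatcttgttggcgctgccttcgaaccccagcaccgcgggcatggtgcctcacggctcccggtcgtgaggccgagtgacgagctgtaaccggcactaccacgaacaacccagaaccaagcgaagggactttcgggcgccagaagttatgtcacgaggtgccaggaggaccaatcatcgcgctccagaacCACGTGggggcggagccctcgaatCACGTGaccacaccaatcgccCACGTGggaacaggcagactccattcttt
Tdg, chr10:82629588-82629887, plus strand: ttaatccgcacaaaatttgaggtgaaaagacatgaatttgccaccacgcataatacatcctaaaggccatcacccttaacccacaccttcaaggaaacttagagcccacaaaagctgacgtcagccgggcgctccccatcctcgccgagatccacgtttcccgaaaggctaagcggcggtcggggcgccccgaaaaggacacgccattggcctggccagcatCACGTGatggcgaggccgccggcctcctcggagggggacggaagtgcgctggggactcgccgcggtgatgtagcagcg
Lig3, chr11:82780859-82781158, plus strand: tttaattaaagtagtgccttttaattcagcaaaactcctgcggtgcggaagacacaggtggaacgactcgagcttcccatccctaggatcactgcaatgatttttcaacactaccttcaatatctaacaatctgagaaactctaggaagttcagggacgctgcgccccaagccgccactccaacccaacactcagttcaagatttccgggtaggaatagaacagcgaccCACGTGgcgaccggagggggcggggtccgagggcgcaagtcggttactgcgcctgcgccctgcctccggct
Ung, chr5:114130185-114130484, plus strand: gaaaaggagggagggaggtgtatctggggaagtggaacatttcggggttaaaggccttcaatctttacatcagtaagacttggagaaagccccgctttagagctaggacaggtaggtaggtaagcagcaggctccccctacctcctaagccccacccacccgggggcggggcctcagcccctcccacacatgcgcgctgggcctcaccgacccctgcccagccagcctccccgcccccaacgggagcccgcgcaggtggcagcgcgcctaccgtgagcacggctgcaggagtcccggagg
The Apex1 window held CACGTG 3 times, beginning 24 bases before the start site, at the start site and 21 bases after it. Tdg held it 1 time, 28 bases before the start site, and Lig3 1 time, 21 bases before it. The windows of Ung, Ogg1, Mutyh, Neil1, Neil3 and Xrcc1 held none. Of all 32851 windows of this length, 7.15% held it at least 1 time and 29 windows, or 0.0883%, held it at least 3 times. GGGCGG on either strand, the GC box, was found 2 times in the Ung window and is in 35.7% of all windows, while the E2F sites TTTCGCGC and TTTGGCGC, in 0.813% of all windows, were in none of the 9. A match describes these letters alone, and binding was not measured.

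**Figure D1:**
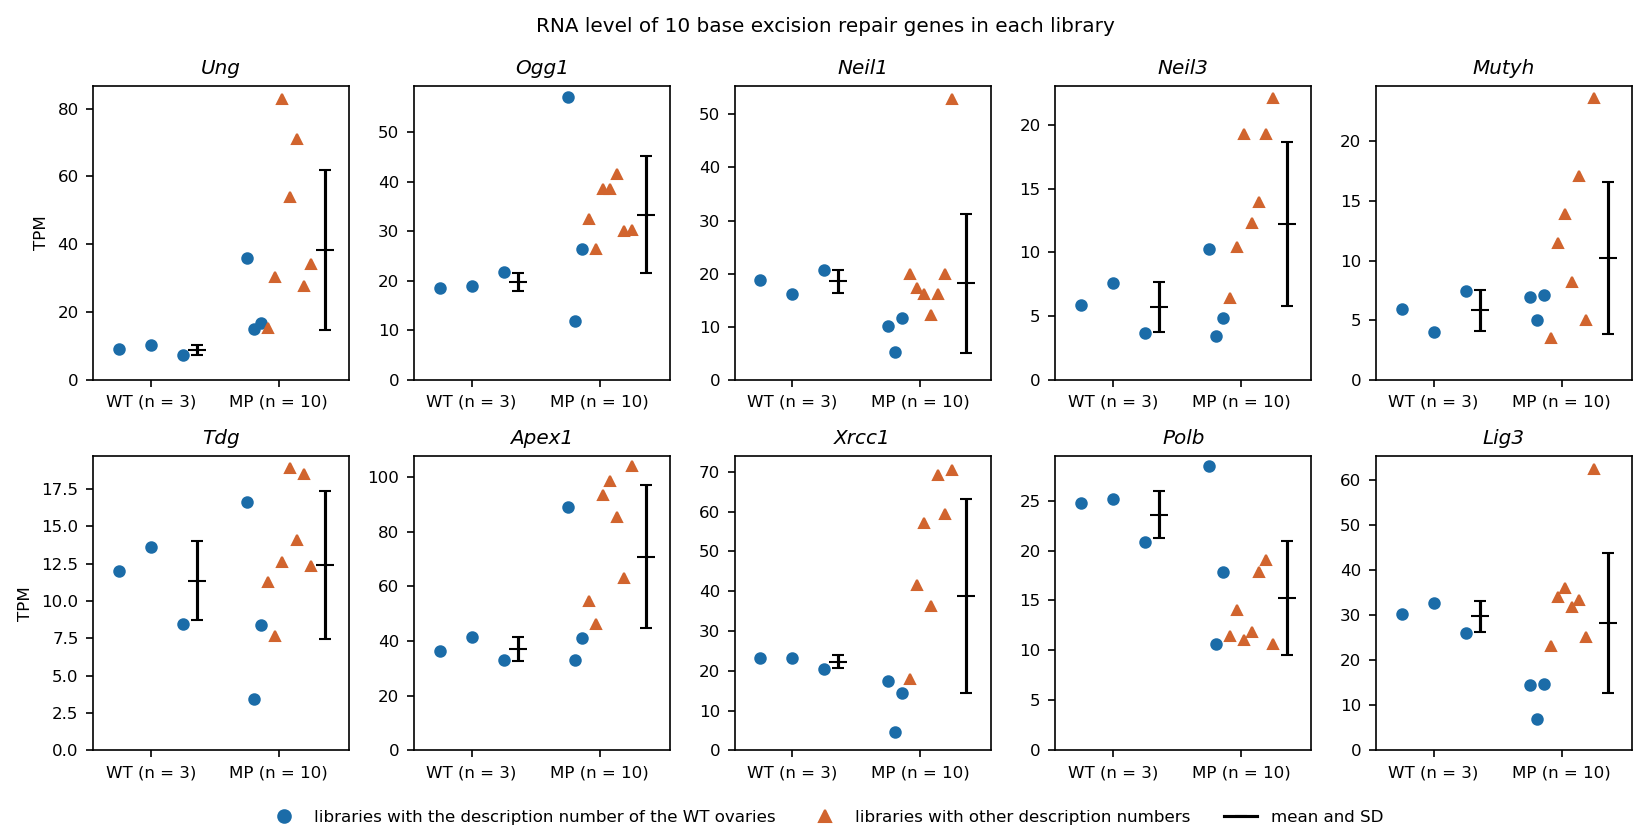
TPM of each of the 10 genes in every library, with 1 point per library and the mean and SD beside each group. Circles are libraries with the IGO number of the ovaries and triangles the other 7 tumors. All 10 tumors lay above the ovaries for Ung, 9 of 10 lay below them for Polb, and MP tumor 10 stood far above the other tumors for Neil1 and Lig3.

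The comparison of MP tumors with WT ovaries asks how the RNA of the repair genes stood in tumors labelled as carrying MYC and a disrupted Trp53. It is taken in the order of the pathway. Ung led the changes, rising in every tumor, and Apex1, Ogg1 and Neil3 rose once the shift of the median gene was removed. Tdg, Mutyh, Neil1, Xrcc1, Polb and Lig3 were called neither in TPM nor after median-of-ratios scaling over the 13 libraries without covariates.

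Ung encodes uracil-DNA glycosylase, which removes uracil left by misincorporation or by deamination of cytosine. Its gene lies on chromosome 5 from 114130386 to 114139323 (GRCm38). In WT ovaries 1, 2 and 3 Ung was at 9.20, 10.3 and 7.28 TPM, and in the MP tumors it ran from 15.1 to 82.9 TPM with a median of 32.2. Every tumor stood above every ovary, which held for 3.02% of all genes tested. MP tumors 6, 8 and 7 were highest, and MP tumors 2, 4 and 3 were lowest. The means were 8.92 ± 1.52 TPM (SD, n = 3) and 38.3 ± 23.7 TPM (SD, n = 10), a log2 fold change of 1.77 (SE 0.52, limma adjusted P = 0.0294). It was the only 1 of the 10 genes called higher in TPM, where 2.51% of all genes tested were, and 0 of the 10 were called lower, against 14.3%. After scaling, the difference was 2.41 (SE 0.45, limma adjusted P = 0.00217). Among the 6 libraries with the IGO number of the ovaries it was 1.15 in TPM (limma adjusted P = 0.0288), where the median gene was at -1.19 and 6.44% of all genes tested were called higher. The call in TPM was lost with that number as a covariate (limma adjusted P = 0.091) and without WT ovary 1, 2 or 3 (limma adjusted P = 0.109, 0.0907 and 0.139), the fold change without an ovary being 1.64 to 1.87.

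Tdg encodes thymine-DNA glycosylase, which removes thymine or uracil opposite guanine and the oxidized forms of methylcytosine made by TET enzymes. It read 12.0, 13.6 and 8.47 TPM in the ovaries and from 3.42 to 18.9 TPM, median 12.5, in the tumors. The groups overlapped, with 4 tumors above every ovary and 3 below. The log2 fold change was 0.02 (SE 0.46, limma adjusted P = 0.977) in TPM and 0.67 (SE 0.37, limma adjusted P = 0.220) after scaling. Both enzymes act on uracil, and the ratio of Ung to Tdg within a library separated the groups. This ratio is not altered by a single factor per library, as in median-of-ratios scaling, but can be by quantile normalization. It was 0.756 to 0.860 in the ovaries and 1.34 to 6.57 in the tumors, and 2.41% of all genes tested were higher relative to Tdg in every tumor.

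Ogg1 and Mutyh encode the pair of glycosylases that deal with oxidized guanine. OGG1 cuts it out when it faces cytosine, and MUTYH removes adenine put in opposite it. Ogg1 was at 18.4, 19.01 and 21.8 TPM in the ovaries and between 11.8 and 57.0 TPM, median 31.4, in the tumors. Above every ovary stood 9 tumors, MP tumor 1 the highest, and only MP tumor 2 was below. The difference was 0.64 (SE 0.39, limma adjusted P = 0.264) in TPM and 1.32 (SE 0.39, limma adjusted P = 0.0310) after scaling, where every tumor exceeded every ovary. Mutyh was at 5.96, 4.03 and 7.48 TPM in the ovaries and between 3.51 and 23.6 TPM, median 7.67, in the tumors. Its groups overlapped, with 5 tumors above every ovary, MP tumors 10 and 8 leading, and MP tumor 4 below. The log2 fold change was 0.55 (SE 0.51, limma adjusted P = 0.452) in TPM and 1.16 (SE 0.45, limma adjusted P = 0.0845) after scaling. No steady ratio of Ogg1 to Mutyh was seen among tumors, where it ran from 1.28 in MP tumor 10 to 9.26 in MP tumor 4, around the 2.91 to 4.72 of the ovaries.

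Neil1 and Neil3 encode glycosylases for oxidized pyrimidines and ring-opened purines, NEIL3 being known for its expression in dividing cells. Neil1 was at 18.9, 16.2 and 20.6 TPM in the ovaries and between 5.19 and 52.9 TPM, median 16.1, in the tumors. Below every ovary lay 6 tumors, and only MP tumor 10 lay above, at more than any other library. Its log2 fold change was -0.24 (SE 0.50, limma adjusted P = 0.748) in TPM and 0.43 (SE 0.32, limma adjusted P = 0.356) after scaling, so the sign followed the scaling. Neil3 was at 5.88, 7.60 and 3.66 TPM in the ovaries, a level near that of Mutyh, and at 3.47 to 22.1 TPM, median 11.4, in the tumors. Of the tumors, 7 were above every ovary and MP tumor 2 was below. The difference was 0.84 (SE 0.52, limma adjusted P = 0.263) in TPM and 1.43 (SE 0.32, limma adjusted P = 0.00740) after scaling, where no tumor overlapped an ovary.

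Apex1 encodes the endonuclease that receives the product of every glycosylase above, and it was the most abundant of the 10 genes in each of the 13 libraries. Its window with 3 CACGTG matches is printed above. Apex1 was at 36.3, 41.7 and 33.3 TPM in the ovaries and from 32.9 to 104 TPM, median 74.3, in the tumors. While 8 tumors stood above every ovary, MP tumor 3 lay within their range at 41.1 TPM and MP tumor 2 below it. The log2 fold change was 0.82 (SE 0.38, limma adjusted P = 0.146) in TPM and 1.52 (SE 0.37, limma adjusted P = 0.0111) after scaling, with every tumor above every ovary. On chromosome 14 Apex1 overlaps Pip4p1, listed under its older symbol Tmem55b, on the opposite strand over 61.7% of its 1422 exon bases. Whether reads were assigned by strand is not stated, and without strand they cannot be told apart there. Tmem55b itself was at 27.2 ± 3.07 TPM (SD, n = 3) in the ovaries and 18.8 ± 5.28 TPM (SD, n = 10) in the tumors, a log2 fold change of -0.57 in TPM (limma adjusted P = 0.288) and 0.12 after scaling (limma adjusted P = 0.775).

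Xrcc1 encodes the scaffold of the short branch. It was at 23.3, 23.3 and 20.4 TPM in the ovaries and from 4.72 to 70.6 TPM, median 38.9, in the tumors, lowest in MP tumor 2 at 4.72 TPM and at 14.5 TPM or more in the others. MP tumors 5 to 10 were above every ovary and MP tumors 1 to 4 were below. The log2 fold change was 0.42 (SE 0.66, limma adjusted P = 0.666) in TPM and 1.09 (SE 0.37, limma adjusted P = 0.0557) after scaling. It was -0.98 in TPM among the 6 libraries with the IGO number of the ovaries (limma adjusted P = 0.0958), the opposite sign, where the median gene was at -1.19, and 0.57 there after scaling (limma adjusted P = 0.129).

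Polb encodes DNA polymerase β, which trims the sugar left at the nick and fills the gap. It was at 24.7, 25.2 and 20.9 TPM in the ovaries and from 10.6 to 28.5 TPM, median 12.9, in the tumors. Every tumor but MP tumor 1, which was above, was below every ovary. The log2 fold change was -0.66 (SE 0.37, limma adjusted P = 0.223) in TPM and 0.03 (SE 0.48, limma adjusted P = 0.968) after scaling, close to the median gene both times, so the sign followed the scaling.

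Lig3 encodes DNA ligase III, which also serves mitochondrial DNA. It was at 30.3, 32.8 and 26.1 TPM in the ovaries and from 6.89 to 62.5 TPM, median 28.6, in the tumors. Tumors fell on both sides of the ovaries, 5 below and 4 above, with MP tumor 10 far above the rest. The log2 fold change was -0.27 (SE 0.51, limma adjusted P = 0.725) in TPM and 0.41 (SE 0.27, limma adjusted P = 0.291) after scaling. Among the same 6 libraries, Lig3 (-1.30, limma adjusted P = 0.0125) and Neil1 (-1.02, limma adjusted P = 0.0296) were called lower in TPM, where 57.3% of all genes tested were. Both had the opposite sign there after scaling, at 0.26 and 0.51. Lig3 shares 25.1% of its exon bases with Rffl on the opposite strand, while 10.6% of Ogg1 lies over Camk1, 6.83% of Tdg over Glt8d2 and 1.14% of Polb over Gm26909. Ung, Neil1, Neil3, Mutyh and Xrcc1 overlapped no exon of another gene.

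**Figure D2:**
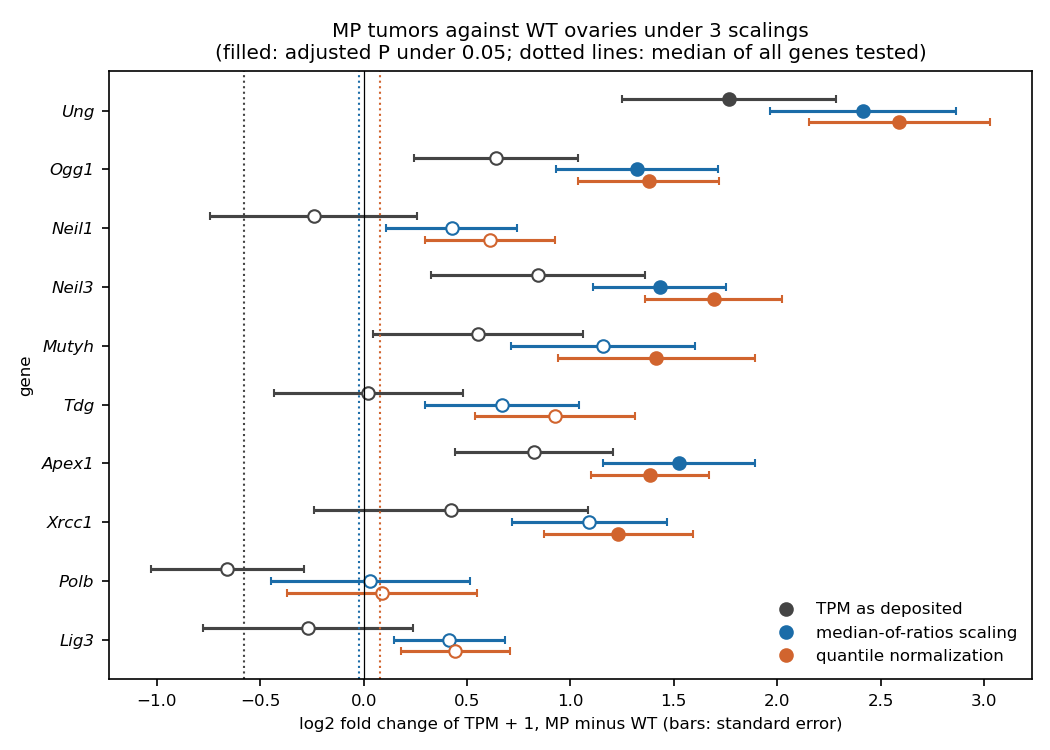
Log2 fold change of TPM + 1, MP minus WT, of each gene in TPM as deposited, after median-of-ratios scaling and after quantile normalization, with standard errors. Filled points have an adjusted P under 0.05 and dotted lines mark the median of all genes tested. Ung is filled under all 3 scalings, and Polb lies near the dotted line of each.

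Set beside all genes, the 10 were at a median log2 fold change of 0.49 in TPM, against -0.58 for all genes tested, and 7 of 10 were positive. After median-of-ratios scaling the median was 1.12, against -0.02, and all 10 were positive. Then 4 of 10, Ung, Ogg1, Neil3 and Apex1, were called higher and 0 lower, where 7.39% of all genes tested were called higher and 11% lower. The same 4 had every tumor above every ovary after scaling, which held for 9.45% of all genes tested. With quantile normalization 6 of 10 were called higher, Mutyh (1.42, limma adjusted P = 0.0451) and Xrcc1 (1.23, limma adjusted P = 0.0252) joining the 4, and 0 lower, where 11% of all genes tested were called higher and 12.1% lower. In TPM the unadjusted P was under 0.05 for 2 of 10, Ung and Apex1, against 33.0% of all genes tested.

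Shares of the pathway's RNA are not altered by a single factor per library, as in median-of-ratios scaling, but can be by quantile normalization. The 10 genes summed to between 170 and 194 TPM in the ovaries and from 99.1 TPM in MP tumor 2 to 423 TPM in MP tumor 10, with 8 tumors above every ovary. Ung made up 4.97%, 5.31% and 4.29% of this sum in WT ovaries 1, 2 and 3, and between 7.74% and 21.8% in the tumors (median 12.6%). Its share was above that of every ovary in all 10 tumors, and 1.45% of all genes tested stood so relative to the same sum. Polb went the other way, from 12.3% to 13.4% in the ovaries to between 2.51% and 10.9% in the tumors, below in all 10. Lig3 held 15.4% to 16.9% in the ovaries and 5.05% to 14.8% in the tumors, also below in all 10. Relative to the same sum, 33.4% of all genes tested were below every ovary in all 10 tumors, so 2 of the 10 is not more than among all genes. Apex1 held 19.6% to 21.5% in the ovaries and was above this in 9 tumors, up to 33.2% in MP tumor 2. Neil1 was below the ovaries in 8 tumors, whereas Xrcc1 was above in 5 and below in 5. The shares sum to 100%, so a larger share of Ung lowers the others, and ratios of single genes are free of this. Each tumor had more Ung than the ovaries relative to Polb, at 0.938 to 7.54 against 0.349 to 0.408. Each also had more Apex1 relative to Polb, at 2.31 to 9.80 against 1.47 to 1.66. Of all genes tested 8.83% were higher relative to Polb in every tumor than in any ovary. Xrcc1 exceeded Lig3 in 7 tumors and in 0 ovaries, the ratio being 0.685 to 2.35 against 0.710 to 0.780, with 8 tumors above every ovary.

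**Figure D3:**
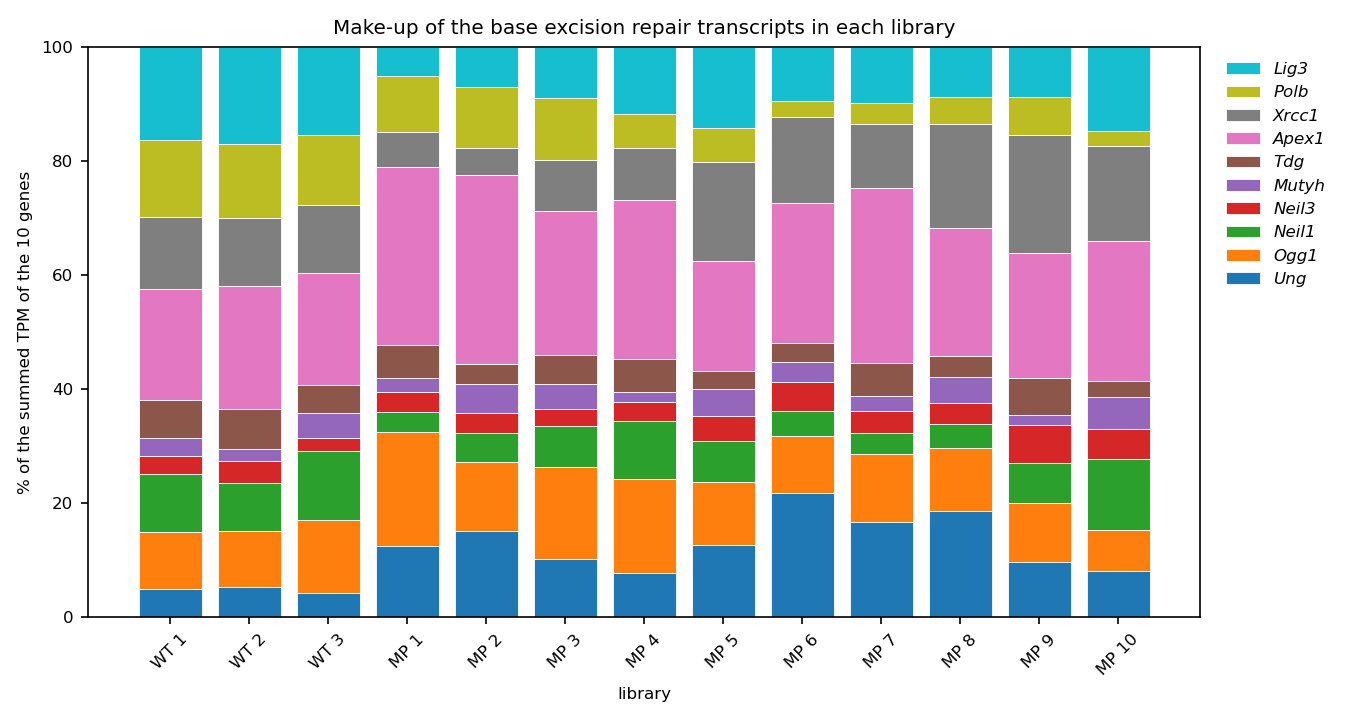
Share of each of the 10 genes in their summed TPM, as a stacked bar per library that adds up to 100%. Ung, at the foot of each bar, takes 4.29% to 5.31% in the ovaries and 7.74% to 21.8% in the tumors, and the bands of Polb and Lig3 are thinner in every tumor than in any ovary, as 33.4% of all genes tested would be relative to this sum.

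The order of the levels was as follows. By mean TPM the ovaries ran Apex1, Lig3, Polb, Xrcc1, Ogg1, Neil1, Tdg, Ung, Mutyh and Neil3, and each gene through Polb exceeded the next in all 3 ovaries. Polb and Xrcc1, at 23.6 ± 2.38 and 22.3 ± 1.68 TPM (SD, n = 3), were nonetheless closer than their spread, as were Mutyh and Neil3. Xrcc1 exceeded Ogg1, Ogg1 exceeded Neil1 and Ung exceeded Mutyh in 2 of 3 ovaries. The tumors ran Apex1, Xrcc1, Ung, Ogg1, Lig3, Neil1, Polb, Tdg, Neil3 and Mutyh. There Xrcc1, Ung and Ogg1 did not separate, since Xrcc1 exceeded Ung in 4 of 10 tumors and Ung exceeded Ogg1 in 6. Apex1 exceeded Xrcc1 and Lig3 exceeded Neil1 in all 10 tumors. Tdg exceeded Neil3 in 5 tumors and Neil3 exceeded Mutyh in 5, so the lowest places were not settled. Neil1 exceeded Polb in 6 tumors. Ung, below Polb in every ovary, was above it in 9 of 10 tumors.

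Tumors differed in which repair genes were high. After scaling, MP tumors 1 and 3 had all 10 genes above every ovary, and their average differences from the WT mean over the 10 genes were 1.58 and 1.31 on the log2 scale. In TPM, MP tumor 1 had 6 genes above every ovary and 3 below, and MP tumor 3 had 2 above and 5 below. On the scaled values MP tumor 5 had the smallest average difference, 0.47, with Tdg and Polb below the ovaries, followed by MP tumor 9 at 0.59, with Polb and Lig3 below. In TPM, MP tumor 5 had 7 genes above every ovary and 2 below, and MP tumor 9 had 6 above and 2 below. The order of these tumors thus followed the scaling. After scaling Ung had the largest difference of the 10 in 7 tumors, MP tumors 1, 2, 3, 5, 6, 7 and 8. In MP tumor 4 it was Ogg1, in MP tumor 9 Neil3 and in MP tumor 10 Mutyh. Polb had the smallest difference in all of MP tumors 4 to 10. Among tumors the scaled log2 levels of Polb (SD 0.85) and Ung (SD 0.78) varied most and those of Lig3 (SD 0.36) and Neil3 (SD 0.41) least. In TPM the ratio of the highest to the lowest tumor was smallest of the 10 for Polb, at 2.69. It was largest for Xrcc1, at 14.9, Neil1, at 10.2, and Lig3, at 9.07, with Ung and Neil3 in between. The places of Polb and Lig3 thus followed the scaling.

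Levels were also set out by the IGO number in the descriptions of the tumors. After scaling Polb was at 14.7 to 17.3 in the ovaries, at 33.3 to 45.2 in MP tumors 1 to 3, which share that number with them, and at 7.38 to 16.0 in MP tumors 4 to 10. These sets of tumors did not overlap, which held with MP tumors 1 to 3 higher for 14.1% of all genes tested and for 1 of the 10, a share no larger than among all genes, and with MP tumors 1 to 3 lower for 10.4% and for 0 of the 10. Within the 6 libraries of that number the scaled log2 fold change of Polb was 1.19 (limma adjusted P = 0.00197), against 0.03 over all 13. In TPM those 6 libraries gave Ogg1 0.40, Neil3 0.03, Mutyh 0.13, Tdg -0.43, Apex1 0.41 and Polb -0.40, none of them called (limma adjusted P 0.388 to 0.953), where the median gene was at -1.19. After scaling the same 6 genes and Ung were called higher there, 7 of the 10, as were 27.1% of all genes tested. In shares of the summed TPM, Polb stood at 9.93% to 10.9% in MP tumors 1 to 3 and at 2.51% to 6.61% in the others. Xrcc1 went the opposite way, at 4.76% to 8.90% in MP tumors 1 to 3 and 9.16% to 20.7% in the others. Relative to that sum MP tumors 1 to 3 lay apart on the high side for 6.34% of all genes tested and for 1 of the 10, and on the low side for 14.3% and for 1 of the 10. In TPM the same division separated Neil1, Xrcc1 and Lig3, each lower in MP tumors 1 to 3, which held for 28.7% of all genes tested, against 0.805% with MP tumors 1 to 3 higher. The number and the tumors that carry it cannot be told apart.

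**Figure D4:**
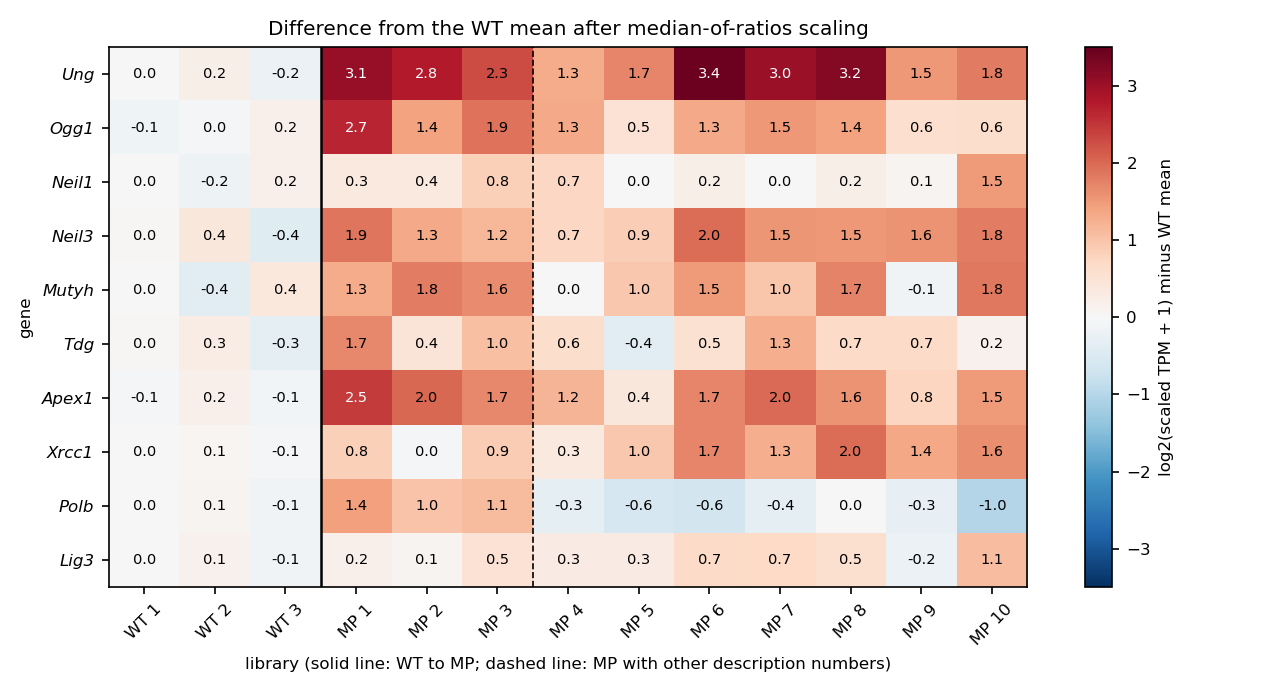
Difference of log2(scaled TPM + 1) from the WT mean for each gene (rows) in each library (columns), after median-of-ratios scaling, with red for higher and blue for lower. Ung is red in every tumor, from 1.3 to 3.4, and Polb turns from red in MP tumors 1 to 3 to blue in most of MP tumors 4 to 10.

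Of 32 other genes of base excision repair, all tested, 3 rose and 2 fell in TPM, with a median log2 fold change of 0.27. After scaling 14 were called higher and 1 lower, with a median of 0.98. Of all genes tested, 2.51% were called higher and 14.3% lower in TPM, and 7.39% and 11% after scaling. The genes called lower are thus not more than among all genes. The 3 that rose in TPM belonged to the long branch and are shared with DNA replication, as did 12 of the 14 called after scaling. Rfc4, a subunit of the clamp loader that places PCNA on DNA, was at 33.4 to 49.8 TPM in the ovaries and 76.9 to 391 TPM in the tumors (log2 fold change 2.12, limma adjusted P = 0.00730, and 2.82, limma adjusted P = 0.00837 after scaling). Rfc5, of the same complex, had a difference of 1.77 (limma adjusted P = 0.00794, and 2.45, 0.00376 after scaling), and Pole3, of DNA polymerase ε, of 1.29 (limma adjusted P = 0.0148, and 2.00, 0.0133 after scaling). All 10 tumors exceeded every ovary for each of the 3, which held in TPM for 3.02% of all genes tested. Pold4, the small subunit of DNA polymerase δ, was lower in TPM (-1.26, limma adjusted P = 0.0430) and not called after scaling (-0.55, limma adjusted P = 0.383). In that group of 16 genes, 3 were called higher and 1 lower in TPM, and 12 higher and 0 lower after scaling.

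Against 14.3% of all genes tested called lower in TPM, the next groups held few. Of 11 genes that process single-strand breaks, 0 rose and 1 fell in TPM (limma, 3 with an unadjusted P under 0.05). The 1 was Parp4, a distant relative of the break sensor PARP1, at 21.2 to 23.7 TPM in the ovaries and 1.06 to 17.9 TPM in the tumors (-2.19, limma adjusted P = 0.0334, and -1.59, limma adjusted P = 0.0306 after scaling). Parp1 itself, which recruits XRCC1 to breaks, differed by 0.87 (limma adjusted P = 0.231) in TPM and by 1.58 (limma adjusted P = 0.00643) after scaling. The 5 other glycosylases, Smug1, Mbd4, Nthl1, Neil2 and Mpg, gave 0 calls in TPM (limma, 0 with an unadjusted P under 0.05), and Nthl1 was called higher after scaling (1.30, limma adjusted P = 0.0271).

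**Figure D5:**
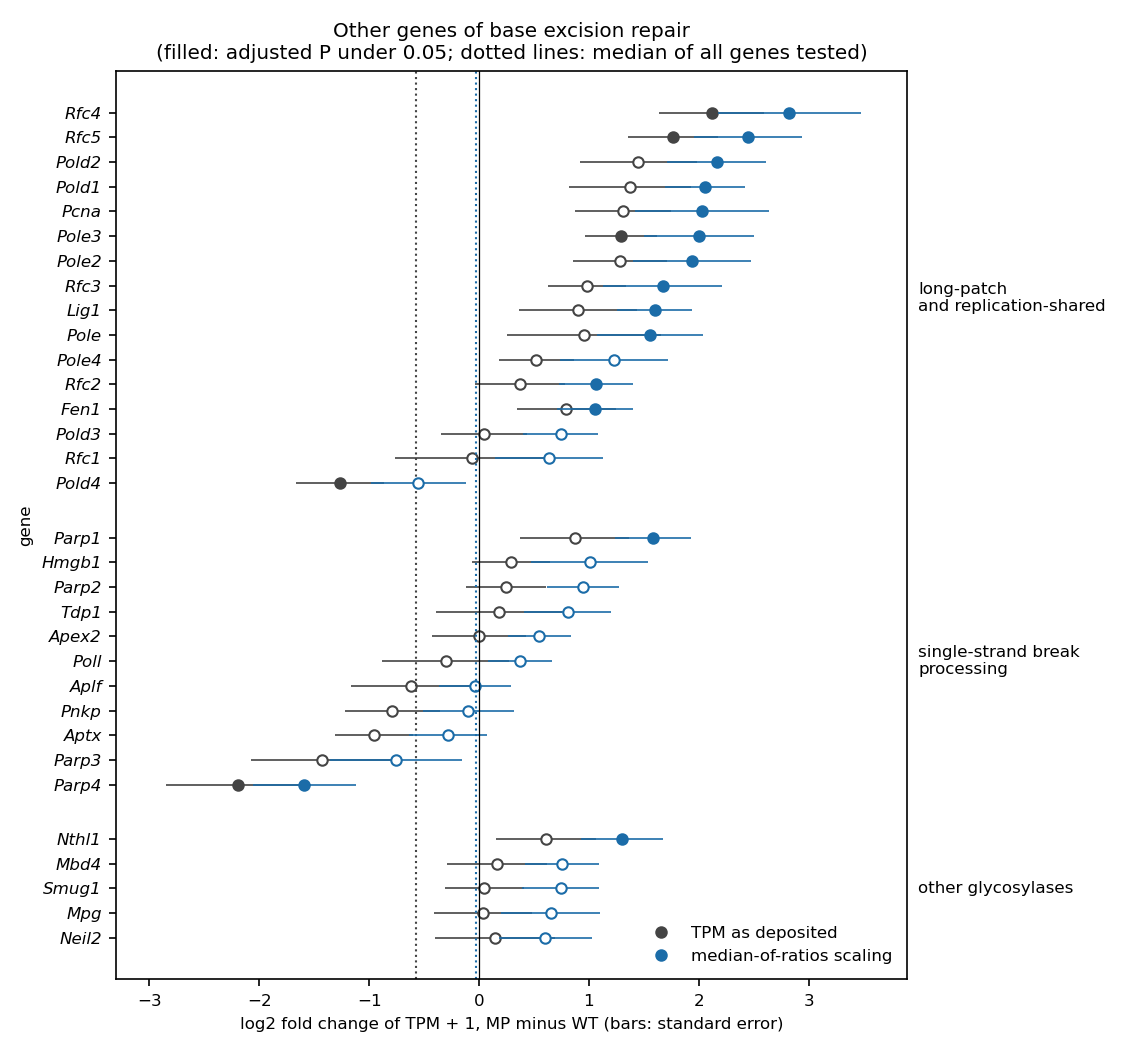
Log2 fold change of TPM + 1, MP minus WT, of the 32 other genes of the pathway by group, in TPM as deposited and after median-of-ratios scaling, with standard errors. Filled points have an adjusted P under 0.05. Most genes of the long branch lie above 1 after scaling, and Parp4 is the only gene called lower under both scalings.

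Genes that set the supply of the damaged bases moved too. Dut encodes dUTPase, which keeps uracil out of DNA by destroying its precursor. It was at 65.0, 73.4 and 52.2 TPM in the ovaries and 98.6 to 531 TPM, median 249, in the tumors (1.91, limma adjusted P = 0.00566, and 2.62, limma adjusted P = 0.0123 after scaling). Every tumor was above every ovary, which held for 3.02% of all genes tested. The ratio of Ung to Dut was 0.139 to 0.141 in the ovaries and spread from 0.0440 to 0.257 in the tumors, on both sides. It was lower than in the ovaries in MP tumors 1 to 3 and higher in 6 of the other 7. Nudt18, a hydrolase of oxidized nucleotides, was lower (-1.92, limma adjusted P = 0.00898, and -1.30, limma adjusted P = 0.0324 after scaling). Among 6 partners of Tdg in demethylation, Tet1, Tet2, Tet3, Gadd45a, Gadd45b and Gadd45g, only Gadd45a, a stress gene activated by p53, was called, at 88.4 to 209 TPM in the ovaries and 2.92 to 31.4 TPM in the tumors (-3.82, limma adjusted P = 0.000358, and -3.11, limma adjusted P = 0.00212 after scaling). Since 14.3% of all genes tested were called lower in TPM, 1 of 6 is near the share among all genes.

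Genes of proliferation moved alongside. Of all genes tested, 2.51% were called higher and 14.3% lower in TPM, and 7.39% and 11% after scaling. Of 20 listed, 11 were called higher and 0 lower in TPM, and 17 higher and 0 lower after scaling, among them Tk1, Cdc20, Aurka and Cdk1, and their sum ran from 626 to 1158 TPM in the ovaries and from 997 to 4039 TPM in the tumors, 8 of them above every ovary. Tk1, thymidine kinase, rose by 2.12 (limma adjusted P = 0.00273) in TPM and by 2.78 (limma adjusted P = 0.00179) after scaling. Of 10 oocyte markers 9 fell, summing to 308 to 453 TPM in the ovaries and 1.43 to 32.1 TPM in the tumors, and the other, Sohlh1, rose from 0.926 to 1.63 TPM in the ovaries to 6.98 to 275 TPM in the tumors. The parts of proliferation and of these cell types in the differences of the repair genes were not tested.

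Lastly, the 3 genes most like each member were found by Pearson's r of scaled log2 levels over the 10 tumors, among all genes tested. They are given as a description, since the highest of 17277 values is always high, and the tumors fall into 3 sets by IGO number and differ in depth. For Ung they were B130046B21Rik (r = 0.956), Ppat (0.949), an enzyme of purine synthesis, and Tnfrsf8 (0.944). For Apex1 they were Cfap20 (0.972), Rpl21-ps8 (0.961) and Dhodh (0.958), an enzyme of pyrimidine synthesis. Ogg1 ran with Pdhb (0.971), Tsr3 (0.962) and Ndufa6 (0.962), and Neil3 with Sdha (0.936), Gm6560 (0.914) and Wrnip1 (0.900). Neil3 had the lowest of the 10 highest correlations, and Polb the highest. Mutyh was nearest to Rad54l (0.941), a gene of homologous recombination, and Ndc1 (0.940), both on chromosome 4 as Mutyh is, and to Cnot6 (0.934). Lig3 was nearest to Mtor (0.939), Rragd (0.921) and D030028A08Rik (0.916). Xrcc1 ran with Ipo4 (0.954), Spg20 (0.939) and Chtf18 (0.931), Tdg with Gm6218 (0.956), Pum2 (0.931) and Paox (0.924), Neil1 with Gm43852 (0.961), Trmt44 (0.941) and Rint1 (0.934), and Polb with 2700099C18Rik (0.975), Gm12166 (0.972) and Pard6a (0.968).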

How the data were processed

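RNA-seq libraries of 3 WT ovaries and 10 MP tumors were made from polyA-selected RNA and read from 1 end. The authors deposited 1 table of TPM values per gene and library, not pooled. The submitters' processing notes name FastQC 0.11.5, Trimmomatic 0.36, STAR 2.5.3a, featureCounts 1.6.3 and the builds mm10 and GRCm38. The extraction labels name a human build, HTSeq and RPKM instead, which the mouse table does not hold. Every column summed to 1000000. TPM times transcript length gave whole reads for 100% of values in each library (tolerance 0.05 read). Counting intervals were not computed.

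The 10 members were read by symbol, and the members and all gene lists were chosen with earlier results of these data known. The 17277 genes reaching 1 TPM in 3 or more libraries were compared as log2(TPM + 1) with limma 3.58.1 (trended and robust, R 4.3.3), MP minus WT, without covariates, and P values were adjusted over all genes tested by the Benjamini-Hochberg method at 0.05. Fold changes on this scale understate those of low genes. Named genes were all members, Trp53, mouse Myc, of each further list up to 4 called genes with the largest statistics, and the 3 most correlated genes of each member. One gene of these lists is not reported here. Tmem55b, Parp1, Nthl1, Sohlh1 and CT010467.1 were named after their values were seen. Alternatives varied the pseudocount, filter, scaling (median-of-ratios, quantile, length trends, voom on recovered reads), limma options, an exact permutation test (2-sided, 286 splits, smallest P 0.0035), the IGO number as restriction or covariate, a replicate block and single libraries. On simulated data limma recovered 200 of 200 changed genes with 10 false calls among 17277. The simulation gave every gene the same noise, no shift between libraries and changes larger than those of the 10 genes in TPM. It therefore does not measure how well changes like theirs are found in these data. Overlaps and coordinates come from GENCODE M21 and the table, promoters from RefSeq.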

Additional observations from a re-analysis of the deposited data

Results flagged for a closer look

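Of 13 measures over the 10 MP tumors, 4 had 1 tumor far from the others in TPM. The rule would flag about 1 in 20, or 0.65 of 13, if values were normal and measures independent. Neither was tested, and Neil1, Lig3 and Trp53 were flagged in the same library. The count is therefore not read as more than chance. Neil1 was at 52.9 TPM in MP tumor 10, and the next tumor at 19.9 TPM. Lig3 was at 62.5 TPM in the same tumor, with the next at 36.0 TPM. Polb was at 28.5 TPM in MP tumor 1, against 19.01 TPM in the next. Trp53 was at 187 TPM in the library labelled MP tumor 10 and at no more than 26.0 TPM in the other 9. MP tumor 10 also had the largest summed TPM of the 10 repair genes, 423. In TPM, the log2 fold change was -0.43 for Neil1 and -0.42 for Lig3 without MP tumor 10, and -0.76 for Polb without MP tumor 1.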

How the results depend on the processing

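In TPM 1 of the 10 genes was called higher and 0 lower, and over all genes tested 433 higher and 2463 lower (15.0% higher). Pseudocounts, filters, the limma options and the exact permutation test left the counts of the 10 as they were. The exact permutation test gave Ung an adjusted P of 0.0476.

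Scaling moved the counts. Given in the order of median-of-ratios scaling, quantile normalization, removal of length trends and voom on the recovered reads, 4, 6, 5 and 6 of the 10 were called higher and 0 lower. Over all genes 1276, 1904, 1789 and 2760 were higher (40.2%, 47.7%, 50.1% and 47.8% of the calls), and of the 32 other repair genes 14, 17, 14 and 17. Among the 32 the count lower was 2 in TPM, 1 after median-of-ratios scaling, quantile normalization, voom or without the filter, and 0 with a pseudocount of 0.1. In the same order Ogg1 became called at 1.32, 1.38, 1.12 and 1.45 (log2), Neil3 at 1.43, 1.69, 1.64 and 1.76, and Apex1 at 1.52, 1.38, 1.13 and 1.61. Xrcc1 was called at 1.23 (quantile), 1.23 (length) and 1.19 (voom), and Mutyh at 1.42 (quantile) and 1.33 (voom). Neil1 turned to 0.43, 0.61, 0.19 and 0.43, Lig3 to 0.41, 0.44, 0.61 and 0.44 and Polb to 0.03, 0.09, 0.03 and 0.11, none of them called.

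Within the 6 libraries with the IGO number of the ovaries, 1112 genes were called higher and 9902 lower, with 2 of the 10 lower (Neil1 at -1.02, Lig3 at -1.30) and 6 higher and 7 lower among the 32. The number as a covariate gave 894 and 8534, with 0 of the 10 higher (Ung at 1.15), 1 lower (Lig3 at -1.30), and 6 higher and 5 lower among the 32. Both turned Tdg to -0.43 and Xrcc1 to -0.98, and lowered Neil3 to 0.03, Mutyh to 0.13, Apex1 to 0.41 and Ogg1 to 0.40, with Polb at -0.40. WT ovaries and MP tumors share replicate numbers, which the labels do not tie to a shared animal or litter, and same-numbered libraries did not deviate together (r = -0.05, 0.02 and -0.04). The replicate block, on the same 6 libraries, gave 1087 and 9803, 2 of the 10 lower (Neil1 -1.02, Lig3 -1.30), 6 and 7 among the 32, and the same -0.43 for Tdg and -0.98 for Xrcc1.

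Leaving out 1 library gave 0 to 1 of the 10 higher and 0 lower, 94 to 635 genes higher and 1158 to 3264 lower, and 0 to 8 higher and 0 to 3 lower among the 32. Ung ran from 1.62 to 1.88. Tdg turned to -0.16 without WT ovary 3 and to -0.03, -0.05, -0.01 and -0.05 without MP tumor 1, 7, 8 or 9.

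Further settings were added after seeing the data. The 6 libraries with median-of-ratios scaling gave 7 of the 10 higher (Ogg1 1.99, Neil3 1.45, Mutyh 1.58, Tdg 1.06, Apex1 2.04, Polb 1.19 and Ung 2.71), 4683 genes higher and 5461 lower, 20 higher and 1 lower among the 32, and 0.51 and 0.26 for Neil1 and Lig3. The 6 libraries without MP tumor 2 gave 2 of the 10 lower (Neil1 -0.71, Lig3 -0.98), 2171 and 9766 genes, 10 and 6 among the 32, and -0.46 for Xrcc1. Median-of-ratios scaling without MP tumor 2 gave 5 of the 10 higher (Ung 2.37, Ogg1 1.31, Neil3 1.44, Apex1 1.47 and Xrcc1 1.22), 1166 genes higher, 11 and 1 among the 32, and 0.43, -0.08 and 0.45 for Neil1, Polb and Lig3. The causes were not tested. Depth limits Mutyh, Neil1 and Tdg most, with 16, 41 and 52 reads in their shallowest tumors.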
